A study of Mus musculus with 15 samples.

Results

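Interleukin-1 signalling was described here through 10 genes named for their place in the pathway: the ligands Il1a, Il1b and Il18, the receptor antagonist Il1rn, the receptors Il1r1 and Il1r2, the accessory chain Il1rap, and the inflammasome genes Nlrp3, Pycard and Casp1. All 10 had an entry among the 42454 rows of the expression table, and 10 of 10 passed the filter on low values that left 8656 genes for testing. The genes were measured by RNA-seq of macrophages that had been sorted out of mouse ear skin, with 3 libraries in each of 5 groups. The recsNAM group held nerve-associated macrophages recruited to the punched ear (sorted GFP-positive, Tomato-negative), injsNAM held resident nerve-associated macrophages of the punched ear, and sNAM those of the unpunched ear (both sorted GFP-positive, Tomato-positive). The injIM and IM groups held interstitial macrophages of the punched and the unpunched ear (both GFP-negative, Tomato-negative).

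All 5 groups came from mice of the genotype CX3CR1-creERT2/gfp R26-tdT/+, which carry GFP and an inducible Cre at the locus of the fractalkine receptor and a Cre-dependent Tomato reporter. Every mouse received tamoxifen and had its left ear punched 3 weeks later. Both ears were collected 10 days after that, so the unpunched right ears also came from animals with a wound. Cells were gated as CD11b-positive, CD64-positive and negative for lineage markers. The age of the mice is not given in the sources used here. Groups follow the library titles, because the reporter field of the labels goes against the titles and gates for injIM and for sNAM, and the genotype field names Cxcr1 in place of CX3CR1. The libraries came from 3 mice, and the labels do not tie a library to a mouse, so the groups share animals, a link that the tests leave out. The p-values measure only the spread between these libraries.

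Interleukin-1 alpha and interleukin-1 beta are alarm cytokines that bind the same receptor, IL-1R1, which signals once the accessory chain IL-1RAP joins it. The pathway is held back by the receptor antagonist, which occupies IL-1R1 without signalling, and by IL-1R2, a decoy receptor without a signalling domain. Interleukin-1 beta and interleukin-18 are made as precursors that caspase-1 cleaves after an inflammasome forms, in which NLRP3 is a sensor and ASC, the product of Pycard, is the adaptor. Cleavage and secretion are not seen by RNA-seq, so the values below describe transcripts only.

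Il1a lies at chr2:129299610-129309972 and Il1b at chr2:129364570-129371139, both on the minus strand, and Il1r2 lies at chr1:40074079-40125231 on the plus strand (GRCm38, the assembly that mm10 names, GENCODE M21 annotation). The 250 bases before the RefSeq start of these genes (GRCm38.p6) are shown because Il1a and Il1b both fell in punched-ear interstitial macrophages, and Il1b and Il1r2 were both highest in sNAM. The windows are chr2:129309973-129310222 on the minus strand for Il1a, chr2:129371140-129371389 on the minus strand for Il1b and chr1:40085843-40086092 on the plus strand for Il1r2, which lies inside the annotated span of that gene. Each is written 5′ to 3′ on the gene's own strand, with motif matches in capitals.
Il1a: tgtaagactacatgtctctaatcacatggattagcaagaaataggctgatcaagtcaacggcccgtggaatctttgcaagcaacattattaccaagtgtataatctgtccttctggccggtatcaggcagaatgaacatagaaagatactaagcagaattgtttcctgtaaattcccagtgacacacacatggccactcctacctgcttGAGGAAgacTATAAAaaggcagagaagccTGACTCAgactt
Il1b: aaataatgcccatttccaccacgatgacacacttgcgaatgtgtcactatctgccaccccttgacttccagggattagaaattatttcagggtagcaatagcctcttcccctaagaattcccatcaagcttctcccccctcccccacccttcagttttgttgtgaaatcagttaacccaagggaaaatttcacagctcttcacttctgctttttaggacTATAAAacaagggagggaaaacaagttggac
Il1r2: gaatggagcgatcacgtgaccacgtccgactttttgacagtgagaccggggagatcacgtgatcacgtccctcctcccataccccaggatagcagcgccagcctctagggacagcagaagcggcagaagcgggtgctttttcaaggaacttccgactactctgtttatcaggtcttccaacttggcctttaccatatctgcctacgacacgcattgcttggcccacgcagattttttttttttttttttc
The motifs searched on both strands, with the share of 32851 RefSeq promoter windows of this length that hold each, were TATAAA (12.4%), the PU.1 core GAGGAA (23.3%), the C/EBP motif TTGCNNAA (9.56%), the AP-1 motif TGANTCA (6.75%) and a NF-kB consensus (1.21%). Counting back from the base before the start as -1, TATAAA stood at -32 to -27 in Il1a and at -31 to -26 in Il1b. Il1a also held GAGGAA at -41 to -36 and TGACTCA at -12 to -6, and none of these motifs overlapped another. The Il1r2 window held none of the 5 motifs. A match is a description of the letters and not a binding site.

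Values are normalized counts, made by the authors from read counts with 1 scaling factor per library. Whole reads recovered from them gave depths of 20.4 to 23.4 M in recsNAM, 16.9 to 19.5 M in injsNAM, 5.64 to 18.6 M in sNAM, 20.4 to 21.9 M in injIM and 20.6 to 23.8 M in IM (M, 10 to the power of 6 reads). The resident nerve-associated libraries stood apart: replicates correlated at 0.762 to 0.772 in injsNAM and 0.644 to 0.776 in sNAM, against 0.934 to 0.955 in recsNAM, 0.966 to 0.983 in injIM and 0.972 to 0.982 in IM (Pearson, log2 scale, across tested genes). Summed markers of macrophages (10 genes, Lyz2 highest) ranged from 22393 to 26512 CPM in recsNAM and 19004 to 24843 in injsNAM (CPM, reads per M reads of the library). They ranged from 16649 to 21086 in sNAM, 21253 to 24061 in injIM and 23748 to 25788 in IM. The sNAM libraries were all below those of recsNAM, injIM and IM. Groups were compared with limma on log2(normalized count + 100), 1 weight per group and Benjamini-Hochberg adjustment over the 8656 genes. Called means an adjusted p below 0.05, and differences on this scale understate the change of low genes. In sorted bulk samples, fewer expressing cells and less RNA per cell cannot be told apart.

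**Figure D1:**
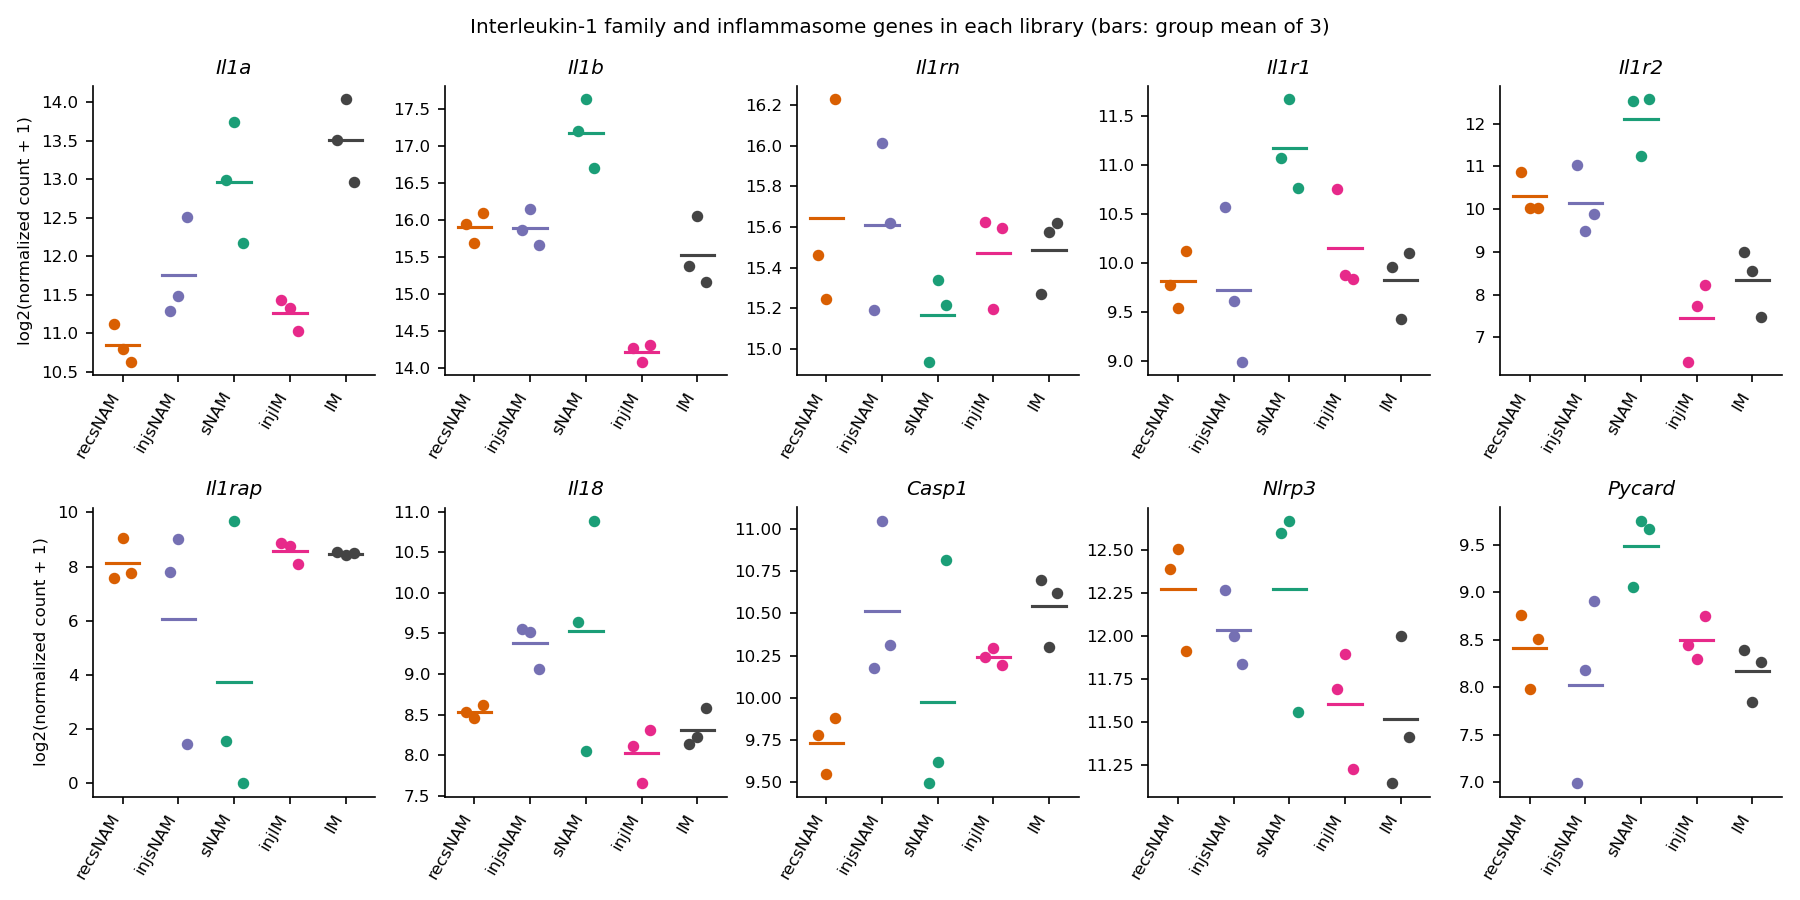
Log2(normalized count + 1) of the 10 genes in each library (points) by group, with the mean of the 3 log2 values as a bar, each gene on its own vertical scale. Il1b was highest in the 3 sNAM libraries and lowest in the 3 injIM libraries, while Il1rn stayed between 31338 and 76767 normalized counts in all 15.

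Among the ligands, Il1b separated the nerve-associated groups from the interstitial group within each ear, whereas Il1a did not. Il1b, the secreted ligand that needs caspase-1, had 62958, 53017 and 70328 normalized counts in recsNAM replicates 1, 2 and 3 and 59825, 72912 and 51830 in injsNAM. It had 150318, 203269 and 106870 in sNAM, 19745, 17374 and 20335 in injIM and 42814, 67824 and 36842 in IM. Every sNAM library exceeded every other library, every injIM library was below every other library, and the recsNAM, injsNAM and IM ranges overlapped. Only sNAM as the highest group and injIM as the lowest, at 19151 ± 1567, therefore stood apart. The means were 62101 ± 8687 in recsNAM, 61522 ± 10643 in injsNAM and 49160 ± 16437 in IM (SD, n = 3 each). The recsNAM and injsNAM means differed by less than their spread, and IM was not tested against either.

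Within the punched ear, Il1b was 3.24-fold higher in recsNAM than in injIM, with a fitted log2 difference of 1.69 (SE 0.19, limma adjusted p = 2.91e-05). Its adjusted p ranged from 3.49e-08 to 0.0207 over 24 alternative settings, under all of which it was called. In injsNAM it averaged 3.21-fold the injIM level, with a fitted log2 difference of 1.67 (SE 0.38), but this comparison did not pass (adjusted p = 0.0605, 1.46e-08 to 0.227 over 23 alternatives, called in 9). In the unpunched ear the sNAM libraries averaged 3.12-fold the IM level, with a log2 difference of 1.64 (SE 0.50) that also did not pass (adjusted p = 0.116, 1.20e-08 to 0.414 over 23 alternatives, called in 6). The recsNAM and injsNAM comparisons share the injIM libraries.

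Il1a, the ligand that is active without cleavage, had 2223, 1774 and 1584 normalized counts in recsNAM and 2506, 2855 and 5825 in injsNAM, against 8107, 13714 and 4626 in sNAM. It had 2766, 2581 and 2088 in injIM, against 11665, 16821 and 8000 in IM. The 3 injIM libraries were all below the 3 IM libraries, while injsNAM replicate 3 lay above sNAM replicate 3, so the resident nerve-associated groups overlapped. Il1a fell by 2.19 on the log2 scale in injIM relative to IM (SE 0.20, limma adjusted p = 1.26e-06) and Il1b fell by 1.31 (SE 0.16, adjusted p = 2.72e-05). Of the 10 genes these 2 were called in that comparison, both lower, where 8.18% of all tested genes were called and 4.03% were called lower. Both calls were lost in edgeR on the recovered reads (adjusted p = 0.0557 for each), which called 4 genes in all, and remained in 22 of 24 alternatives.

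For both cytokines the injury difference was also below 0 in the resident nerve-associated cells, without passing the test. The fitted log2 differences of injsNAM from sNAM were -1.18 for Il1a (SE 0.76) and -1.28 for Il1b (SE 0.61), at a limma adjusted p of 0.855 for Il1a and 0.738 for Il1b. Over 23 alternatives the adjusted p of Il1b ran from 1.40e-05 to 0.977, with a call in 4. That of Il1a ran from 0.0336 to 0.993, with a call in 1 (DESeq2). For Il1b the 3 injsNAM libraries were all below the 3 sNAM libraries. The change with injury in nerve-associated cells minus that in interstitial cells was 0.03 for Il1b (SE 0.63, adjusted p = 0.999) and 1.01 for Il1a (SE 0.78, adjusted p = 0.974), so a difference of injury response was not detected for either.

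Il18, the other caspase-1 substrate, was listed at 369, 349 and 393 normalized counts in recsNAM, 748, 731 and 535 in injsNAM and 795, 265 and 1896 in sNAM. In interstitial cells it had 277, 200 and 317 in injIM and 280, 297 and 382 in IM. The recsNAM and injsNAM libraries were all above the injIM libraries, whereas the sNAM range enclosed the IM range. The log2 differences did not pass in recsNAM against injIM (0.38, SE 0.22, limma adjusted p = 0.391) or in injsNAM against injIM (1.08, SE 0.44, adjusted p = 0.317).

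No difference of the receptor antagonist Il1rn passed the test. Its group means were 53605 ± 20304 in recsNAM, 51299 ± 14411 in injsNAM, 36979 ± 5174 in sNAM, 45804 ± 7154 in injIM and 46211 ± 5882 in IM (SD, n = 3 each). All 6 pairs of groups overlapped, and fitted log2 differences ran from -0.32 (SE 0.48) for sNAM against IM to 0.44 (SE 0.59) for injsNAM against sNAM. For injIM against IM, where Il1a and Il1b fell, the Il1rn difference was -0.02 with an SE of 0.15.

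The ratio of antagonist to cytokine transcripts within a library does not depend on the library factor. Gene lengths enter the ratio, so it is read between groups only. The ratio of Il1rn to Il1b normalized counts was 0.717, 0.733 and 1.09 in recsNAM, 0.624, 0.907 and 0.973 in injsNAM and 0.208, 0.204 and 0.356 in sNAM. It was 2.55, 2.16 and 2.43 in injIM and 0.922, 0.720 and 1.37 in IM. The ratio was highest in the 3 injIM libraries and lowest in the 3 sNAM libraries, and the recsNAM, injsNAM and IM ranges lay between and overlapped.

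On the log2 scale the ratio was lower by 1.97 in sNAM than in IM, at means of -2.01 ± 0.46 in sNAM and -0.05 ± 0.47 in IM (SD, n = 3 each). It was 1.30 higher in injIM than in IM, and 1.73 higher in injsNAM than in sNAM. It was 1.54 lower in injsNAM and 1.52 lower in recsNAM than in injIM, at means of -0.29 ± 0.34 in injsNAM, -0.27 ± 0.34 in recsNAM and 1.25 ± 0.12 in injIM. In each of these 5 comparisons the groups did not overlap and the two-sided exact permutation test gave p = 0.1, the smallest that 3 against 3 libraries allow, or 0.12 adjusted over the 6 comparisons made. The difference of recsNAM from injsNAM was 0.02 (exact permutation p = 1), and its sign turned when recsNAM replicate 3 or injsNAM replicate 1 was left out (-0.18 in each case).

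The ratio of Il1b to Il1a, looked at after the values of both genes were known and therefore given with no test, was also ordered by group. It was 28.3, 29.9 and 44.4 in recsNAM, 23.9, 25.5 and 8.90 in injsNAM and 18.5, 14.8 and 23.1 in sNAM. It was 7.14, 6.73 and 9.74 in injIM and 3.67, 4.03 and 4.61 in IM. The recsNAM libraries were all above those of every other group, the IM libraries were all below them, and injsNAM replicate 3 fell within the injIM range.

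**Figure D2:**
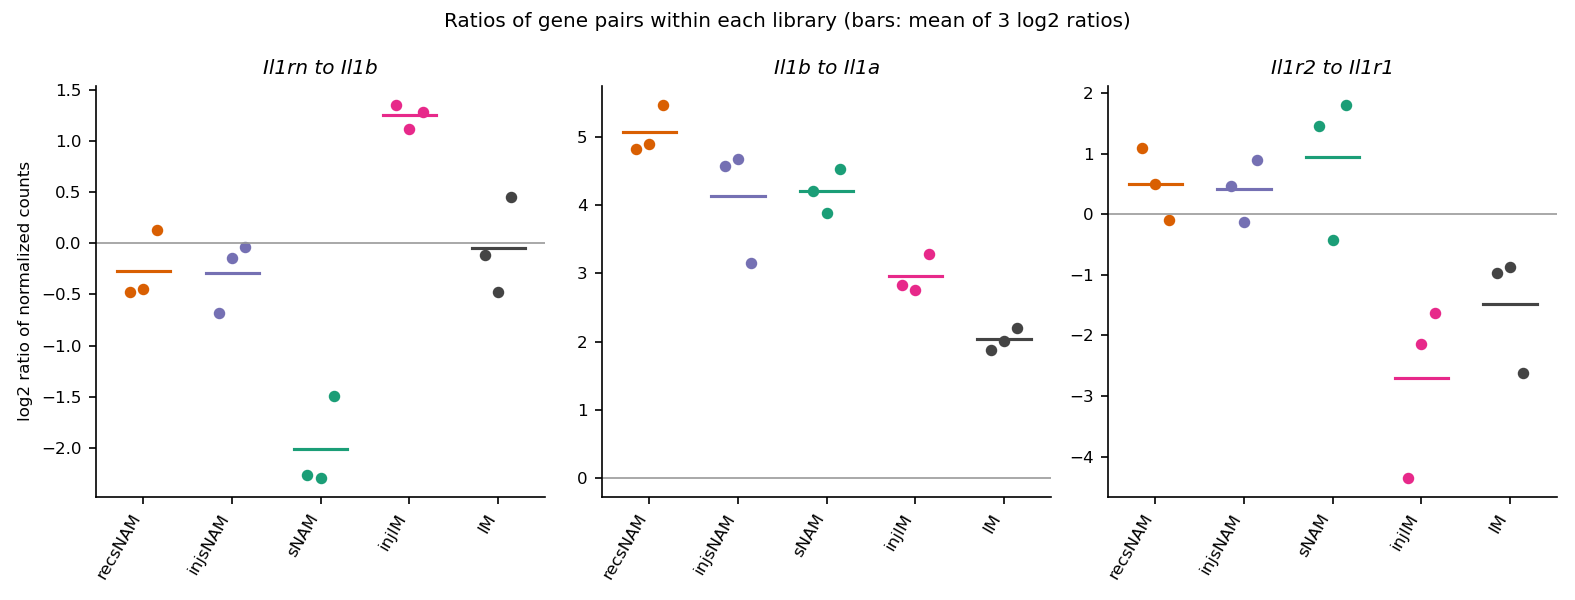
Log2 ratio of normalized counts of Il1rn to Il1b, Il1b to Il1a and Il1r2 to Il1r1 in each library (points) by group, with the mean of the 3 log2 ratios as a bar and a line at equal counts. The Il1rn to Il1b ratio was above 2 in the 3 injIM libraries and below 0.4 in the 3 sNAM libraries.

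Of the receptors, the decoy Il1r2 was the only one that limma called. It had 1860, 1049 and 1037 normalized counts in recsNAM, 2095, 713 and 949 in injsNAM and 5947, 2442 and 6113 in sNAM. It had 84.6, 212 and 295 in injIM and 510, 377 and 178 in IM. All 9 nerve-associated libraries were above all 6 interstitial libraries, and the sNAM libraries were above the other 12. Il1r2 was 6.67-fold higher in recsNAM than in injIM, with a log2 difference of 2.27 (SE 0.34, limma adjusted p = 0.00026). This call held in 21 of 24 alternatives and was lost in edgeR (adjusted p = 0.123), in edgeR with the deposited factors (0.104) and with 1 pooled spread (0.0637). Together with Il1b it made 2 of the 10 genes called in recsNAM against injIM, both higher, where 7.53% of all tested genes were called and 3.19% were called higher.

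In sNAM, Il1r2 averaged 13.6-fold the IM level and in injsNAM it was also above every injIM library, but neither difference passed. The sNAM against IM difference was 3.40 on the log2 scale (SE 0.86, limma adjusted p = 0.0576, from 9.02e-09 to 0.336 over 23 alternatives). Of these alternatives, 8 called it. They included edgeR, edgeR with the deposited factors, DESeq2, 1 pooled spread and quantile normalization. Among the fits that left out 1 library, it was called without IM replicate 1, without injIM replicate 1 and without sNAM replicate 2. Il1b was called among those fits only without IM replicate 2. The injsNAM against injIM difference was 2.12 (SE 0.66, adjusted p = 0.168). Il1r2 was 1.89 lower on the log2 scale in injsNAM than in sNAM (SE 1.05, adjusted p = 0.797), with no overlap between the libraries.

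The signalling receptor Il1r1 had 874, 743 and 1113 normalized counts in recsNAM, 1518, 779 and 507 in injsNAM and 2152, 3260 and 1743 in sNAM. It had 1727, 939 and 910 in injIM and 995, 685 and 1095 in IM. The 3 sNAM libraries were above the other 12, and the other 4 groups overlapped each other. The log2 difference of sNAM from IM was 1.25 (SE 0.66, limma adjusted p = 0.394) and that of injsNAM from sNAM was -1.34 (SE 0.81, adjusted p = 0.834). DESeq2 called Il1r1 in both, at an adjusted p of 0.0272 for sNAM against IM and 0.0341 for injsNAM against sNAM, and no other alternative called it in either. The injury change of Il1r1 in nerve-associated cells minus that in interstitial cells was -1.64 (SE 0.84, adjusted p = 0.932).

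The decoy was high relative to the signalling receptor in the nerve-associated libraries. This ratio reuses the Il1r2 values above, so it is no separate evidence, and it was neither planned nor tested. The ratio of Il1r2 to Il1r1 normalized counts was 2.13, 1.41 and 0.932 in recsNAM, 1.38, 0.916 and 1.87 in injsNAM and 2.76, 0.749 and 3.51 in sNAM. It was 0.0490, 0.226 and 0.325 in injIM and 0.513, 0.550 and 0.163 in IM. Every nerve-associated library had a ratio above every interstitial library, as the panel of this ratio in the plot of within-library ratios shows.

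Il1rap, the accessory chain that both receptors bind, was the least evenly detected gene. It had 192, 529 and 216 normalized counts in recsNAM, 221, 515 and 1.71 in injsNAM and 1.93, 830 and 0 in sNAM. It had 465, 432 and 272 in injIM and 371, 340 and 359 in IM. The lowest values of injsNAM and sNAM were 2 reads, 2 reads and 0 reads, next to 285 reads in the shallowest library, sNAM replicate 2. No Il1rap difference passed, the largest being -1.11 for sNAM against IM (SE 0.81, limma adjusted p = 0.564). In libraries made from 250 pg of RNA, whether cells lacked the transcript or it was lost was not tested.

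Among the inflammasome genes, the sensor Nlrp3 had 5383, 5835 and 3866 normalized counts in recsNAM, 4942, 4101 and 3661 in injsNAM and 6205, 6529 and 3020 in sNAM. It had 3308, 3809 and 2403 in injIM and 2263, 4095 and 2725 in IM. The recsNAM libraries were all above the injIM libraries, by a narrow gap, and the other groups overlapped. The log2 difference of recsNAM from injIM was 0.65 (SE 0.23, limma adjusted p = 0.0965). Among the fits that left out 1 library, this difference was called without IM replicate 2 (which is in neither group compared) and without recsNAM replicate 3.

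Casp1, the protease that matures Il1b and Il18, went the other way. It had 877, 748 and 940 normalized counts in recsNAM, 1157, 2116 and 1268 in injsNAM and 720, 786 and 1798 in sNAM. It had 1211, 1256 and 1169 in injIM and 1661, 1263 and 1573 in IM. The recsNAM libraries were all below those of injsNAM, injIM and IM, and injIM was below IM. None of these differences passed in limma: recsNAM against injIM was -0.46 (SE 0.18, limma adjusted p = 0.136), recsNAM against injsNAM was -0.72 (SE 0.36, adjusted p = 0.739) and injIM against IM was -0.28 (SE 0.14, adjusted p = 0.298).

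The adaptor Pycard was low. It had 434, 251 and 362 normalized counts in recsNAM, 126, 290 and 478 in injsNAM and 530, 862 and 810 in sNAM. It had 348, 314 and 431 in injIM and 334, 228 and 308 in IM. The 3 sNAM libraries were above the other 12. The log2 difference of sNAM from IM was 1.08 (SE 0.57, limma adjusted p = 0.393) and that of injsNAM from sNAM was -1.15 (SE 0.70, adjusted p = 0.836).

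**Figure D3:**
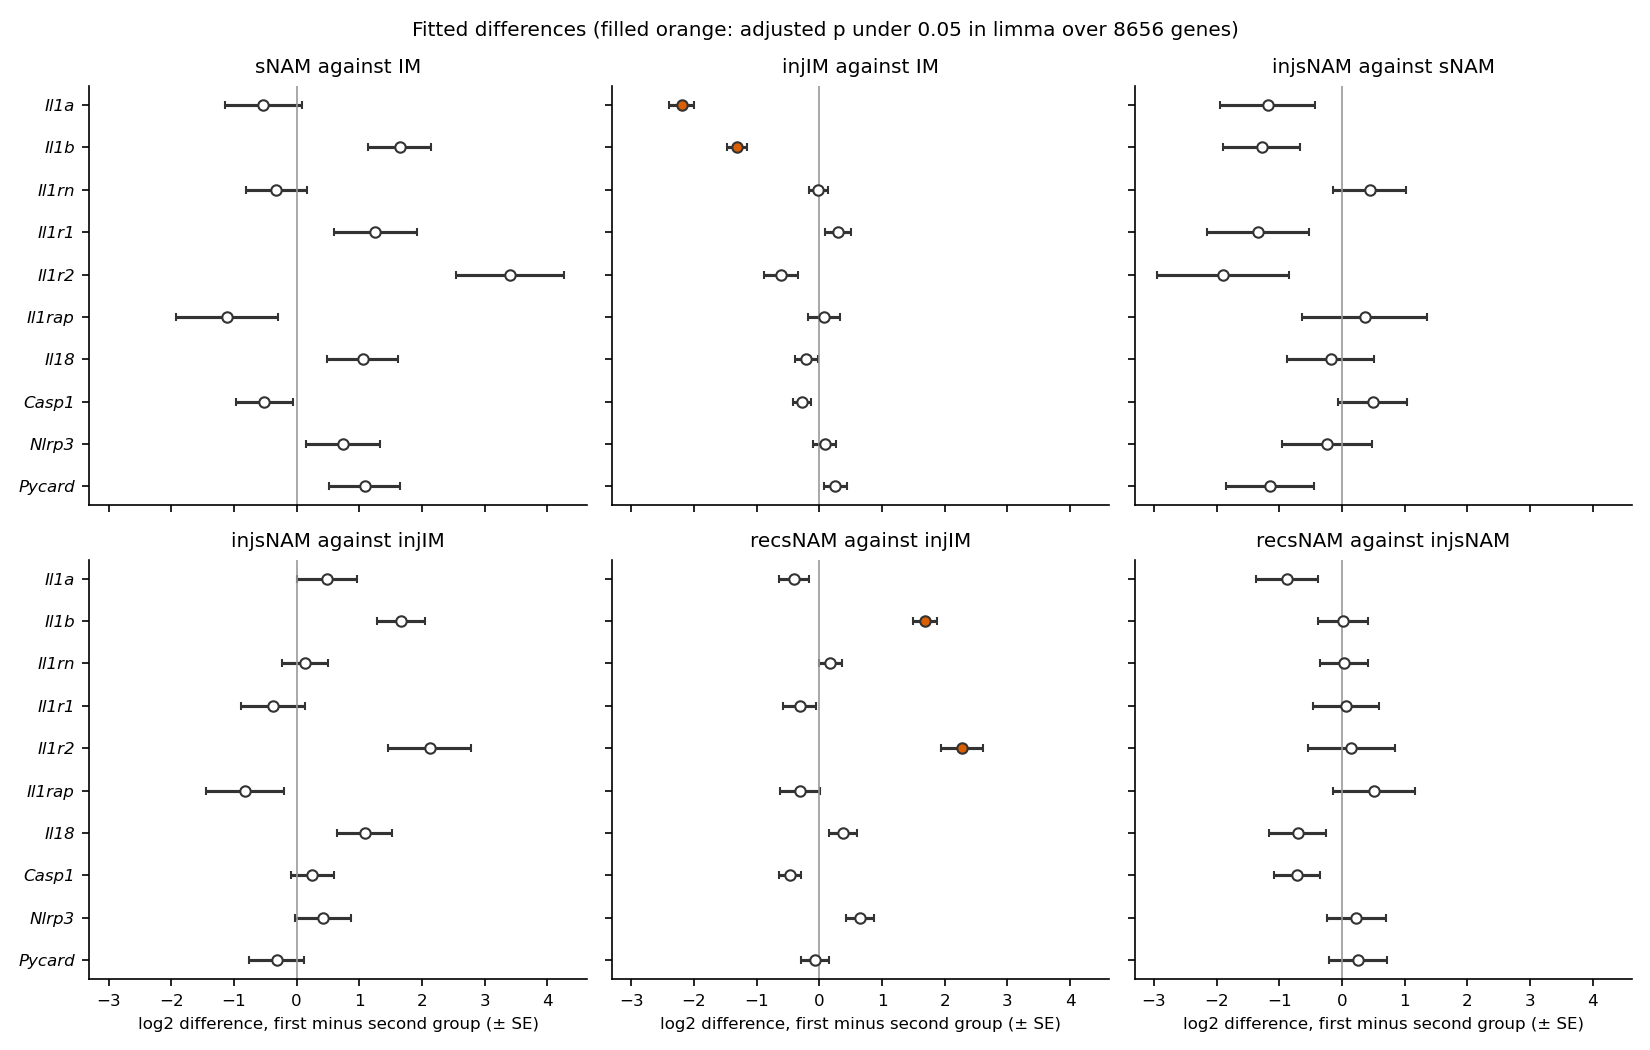
Fitted log2 differences (points) with their SE (bars) of the 10 genes in the 6 comparisons, the group named at the left of each title minus the other, from limma on log2(normalized count + 100). Orange points, at an adjusted p under 0.05, are Il1a and Il1b in injIM against IM and Il1b and Il1r2 in recsNAM against injIM.

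Counted over the 10 genes, calls were made in 2 of the 6 comparisons. In sNAM against IM, 0 of 10 were called by limma, where 1.05% of tested genes were called. At an unadjusted p under 0.05, 2 of 10 passed (Il1b and Il1r2), where 1297 of the 8656 tested genes did (15%). DESeq2 called 4 of 10 in this comparison, where it called 10.7% of tested genes, and edgeR called 2 of 10, where it called 3.84%. The values of 4 of 10 did not overlap, all higher in sNAM (Il1b, Il1r1, Il1r2 and Pycard), where 27.9% of tested genes did not overlap in either direction and 9.57% were higher without overlap. The median difference of the 10 was 0.90, beside -0.26 over all tested genes.

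In injsNAM against injIM, 0 of 10 were called by limma, where 0.485% of tested genes were called, and 3 of 10 passed an unadjusted p under 0.05, where 11.7% did. DESeq2 called 2 of 10, beside 3.63% of tested genes, and edgeR 1 of 10, beside 0.404%. Limma called Il1b when replicate 2 or 3 of IM, or replicate 3 of injIM, was left out. Il1b, Il1r2 and Il18 were higher in injsNAM without overlap, as were 8.92% of tested genes, and 21.0% did not overlap in either direction. In recsNAM against injIM, 5 of 10 did not overlap (Il1b, Il1r2, Il18 and Nlrp3 higher, Casp1 lower), where 23.9% of tested genes did not overlap in either direction.

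In injIM against IM, Il1a, Il1b and Casp1 were lower without overlap, as were 11.4% of tested genes, and 24.9% did not overlap in either direction. In injsNAM against sNAM, 0 of 10 and 0.0% of tested genes were called by limma, and at an unadjusted p under 0.05 it was 1 of 10 (Il1b) and 6.77%. DESeq2 called 4 of 10 there, beside 8.38% of tested genes, and edgeR 1 of 10, beside 1.56%. Il1b, Il1r1, Il1r2 and Pycard were lower in injsNAM without overlap, as were 4.69% of tested genes, and 12% did not overlap in either direction. These are also the 4 genes that were higher in sNAM than in IM, with the sNAM libraries shared by both comparisons.

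Recruited and resident nerve-associated cells of the punched ear did not differ in a called gene. In recsNAM against injsNAM, 0 of 10 and 0.0% of tested genes were called by limma, with 0 of 10 and 7.15% at an unadjusted p under 0.05, and DESeq2 and edgeR each called 0 of 10, beside 1.78% of tested genes for DESeq2 and 0.0693% for edgeR. Il1a, Il18 and Casp1 were lower in recsNAM without overlap, as were 6.40% of tested genes, and 13.7% did not overlap in either direction. For the difference between the injury responses, limma called 0 of 10 and 0.0% of tested genes, with 0 of 10 and 5.13% at an unadjusted p under 0.05, and DESeq2 and edgeR each called 0 of 10, beside 2.63% for DESeq2 and 0.300% for edgeR.

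Levels per kilobase of exon and M reads allow only a rough comparison of genes, because the length joined all annotated exons. A gene whose expressed transcript is shorter than this length appears lower than it is. The length was 3800 bases for Pycard, which spans chr7:127989708-127993867, 11360 for Il1rap and 5535 for Il1rn. On this scale Il1b was the highest of the 10 in every group, with means of 1971 in recsNAM, 1944 in injsNAM, 4740 in sNAM, 600.0 in injIM and 1468 in IM. Il1rn came next, at means of 583 in recsNAM, 558 in injsNAM, 394 in sNAM, 494 in injIM and 474 in IM. Il1a had means of 57.4 in recsNAM, 114 in injsNAM, 264 in sNAM, 75.0 in injIM and 351 in IM, the third of the 10 in every group except recsNAM, where Nlrp3 averaged 75.7 with a range that overlapped that of Il1a. Il1rap was lowest, between 1.31 and 2.05 in the group means, and Pycard ranged from 4.33 to 11.4.

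Some annotated genes overlap these on the opposite strand, and the strand setting of the counting is not given in the sources used here, so their reads cannot be told apart. The antisense transcript Il1bos over Il1b reached at most 390 normalized counts, next to at least 17374 for Il1b. Gm14023 over Il1a reached at most 470, Gm16894 over Il1r2 35.2 and Bco2 over Il18 525, next to 200 to 1896 for Il18.

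Across the 15 libraries, the 6 genes outside the list whose values ranked most like Il1b were Stap1, Bcl2a1d, Dusp2, Bcl2a1b, Mapkapk3 and Cnnm4, with Spearman rho of 0.939, 0.936, 0.911, 0.893, 0.879 and 0.871. Stap1, an adaptor of tyrosine kinase signalling, averaged 1127 ± 280 normalized counts in recsNAM, 1297 ± 617 in injsNAM, 3165 ± 1140 in sNAM, 271 ± 60.7 in injIM and 582 ± 183 in IM (SD, n = 3 each). Dusp2, a phosphatase of MAP kinases, averaged 2463 in recsNAM, 2827 in injsNAM, 4638 in sNAM, 1222 in injIM and 1405 in IM. Bcl2a1d and Bcl2a1b, anti-apoptotic genes, are near-identical copies whose reads may be split between them and are uncertain. Within the list, Il1r2 ranked most like Il1b (rho 0.811), followed by Nlrp3 (0.621), while Il1a did not (0.286), and Casp1 and Nlrp3 ran opposite to each other (-0.689). These correlations describe libraries that share 5 groups and differ in depth.

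Other genes of the pathway were taken from lists. Their calls, and those of marker genes below, come from the main limma fit alone, because alternatives were examined gene by gene only for the 10 genes. In injIM against IM that fit called 708 genes, where edgeR called 4. In recsNAM against injIM it called 652, where edgeR called 9. Of 7 other ligands and soluble inhibitors of the family, only Il18bp, the binding protein that neutralizes interleukin-18, passed the filter, with means of 847 ± 526 in recsNAM, 1001 ± 768 in injsNAM, 165 ± 167 in sNAM, 430 ± 258 in injIM and 197 ± 54.3 in IM, and it was not called in any comparison. Il33, an alarm cytokine of barrier cells, averaged 27.8 over the 15 libraries, and Il36a, Il36b and Il1f10 were listed at 0 throughout. Of 7 other receptors, Il1rl1 (the interleukin-33 receptor) and Il1rl2 (the interleukin-36 receptor) passed the filter, and neither was called.

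The downstream signalling list (16 genes, 16 tested) had no call in injIM against IM, at a median log2 difference of 0.09 beside 0.03 over all tested genes. In recsNAM against injIM, 2 were called lower and none higher, where 4.34% of tested genes were called lower: Peli1, a ubiquitin ligase of the receptor complex, by -0.76 (SE 0.16, limma adjusted p = 0.00465), and Tollip, an adaptor that restrains IRAK signalling, by -0.59 (SE 0.17, adjusted p = 0.0432).

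The list of further inflammasome genes (18 genes, 12 tested) moved in both directions. Of those not tested, Nlrp1a, Nlrp1b, Naip2 and Naip5 each had a further row of the same name, so their low values are not interpreted. In injIM against IM, 1 of the 12 was called higher and 2 lower, where 4.15% of tested genes were called higher and 4.03% lower. Mefv, which encodes the sensor pyrin, rose by 1.57 on the log2 scale (SE 0.22, limma adjusted p = 0.000145). P2rx7, the ATP-gated channel that triggers NLRP3, fell by 0.84 (adjusted p = 0.0126) and Serpinb1a, an inhibitor of neutrophil-type serine proteases, fell by 1.61 (adjusted p = 0.000234). In recsNAM against injIM, 2 of the 12 were called higher and 2 lower, where 3.19% of tested genes were called higher and 4.34% lower. Mefv was higher again by 1.08 (adjusted p = 0.0174) and Panx1, an ATP release channel, by 0.82 (adjusted p = 0.0405), while P2rx7 was lower by 1.17 (adjusted p = 0.00561) and Txnip, a thioredoxin inhibitor that can bind NLRP3, by 0.78 (adjusted p = 0.00623). Mefv averaged 5782 ± 1629 normalized counts in recsNAM, 2607 ± 124 in injIM and 858 ± 341 in IM, and P2rx7 averaged 1260 ± 225 in recsNAM, 3068 ± 1033 in injIM and 5367 ± 595 in IM (SD, n = 3 each).

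Of 15 genes known as targets of interleukin-1 signalling, 11 were tested. In injIM against IM, 4 of the 11 were called lower and none higher, where 4.03% of tested genes were called lower, with a median of -0.41 beside 0.03 over all tested genes: the neutrophil chemokines Cxcl1, by -1.05 (SE 0.11, limma adjusted p = 4.22e-06), and Cxcl2, by -0.88 (SE 0.13, adjusted p = 0.000289), the cytokine Il6, by -1.21 (SE 0.22, adjusted p = 0.00128), and the adhesion molecule Icam1, by -0.66 (SE 0.18, adjusted p = 0.0259). In recsNAM against injIM, where Il1b was higher, 1 of the 11 was called and it was lower, where 4.34% of tested genes were called lower: Csf3 (the neutrophil growth factor G-CSF), by -1.27 (SE 0.25, adjusted p = 0.00327), and the median was -0.04 beside -0.02. Cxcl1 was 0.38 lower (SE 0.13, adjusted p = 0.0966) and Cxcl2 0.16 lower (SE 0.17, adjusted p = 0.681) in recsNAM than in injIM. Cxcl1 averaged 11233 ± 1040 normalized counts in recsNAM, 14661 ± 1611 in injIM and 30430 ± 3012 in IM (SD, n = 3 each). Tnf was listed at 0 and Cxcl3 averaged 1.47 over the 15 libraries, each beside a further row of its name, and neither is interpreted.

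**Figure D4:**
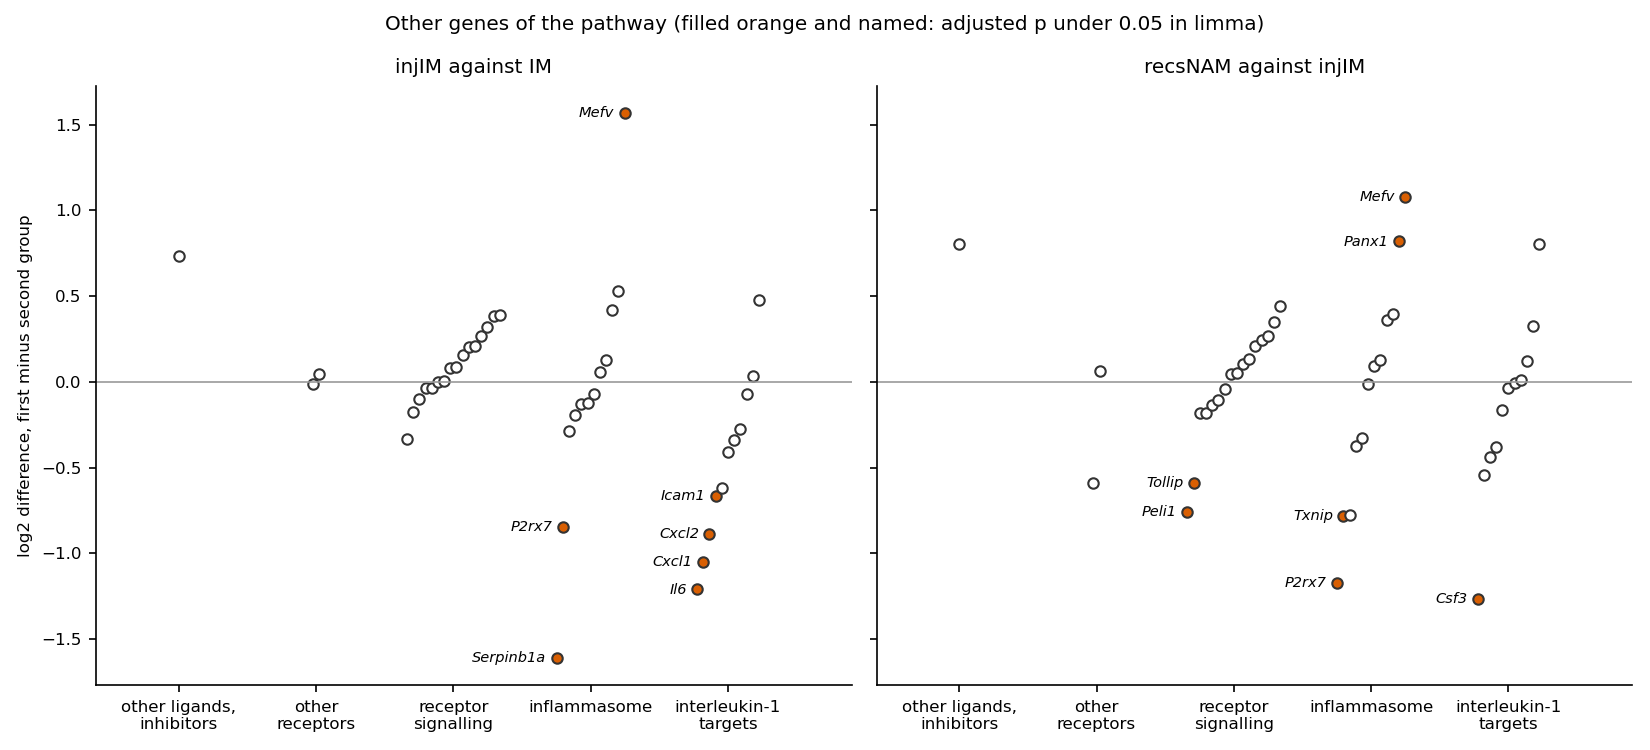
Fitted log2 differences of the tested genes of 5 lists (points, ordered by value within a list) in injIM against IM and recsNAM against injIM, with genes at a limma adjusted p under 0.05 in orange and named. The 4 named interleukin-1 targets were all lower in injIM than in IM, and 1 named target, Csf3, was lower in recsNAM than in injIM.

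Markers of other cell types moved with some of these results, and their part in them was not tested. Summed over 11 dendritic cell markers, the level was 369 to 565 CPM in recsNAM, 447 to 1003 in injsNAM, 1686 to 3126 in sNAM, 106 to 264 in injIM and 270 to 636 in IM. Ccr7 alone made up 65.4% of the mean sum in recsNAM, 56.3% in injsNAM and 64.5% in sNAM. Cd209a made up 74.3% in injIM and 81.9% in IM, so the sums rest on different genes. In recsNAM against injIM, 3 of 8 tested dendritic markers were called higher and none lower, where 3.19% of tested genes were called higher: Ccr7 by 4.01, Ccl22 by 1.83 and Flt3 by 1.49 on the log2 scale (limma adjusted p = 6.09e-07, 0.00623 and 0.00166), beside the higher Il1b and Il1r2. Cd209a, the most abundant of these markers in injIM, had 1008, 1258 and 1170 normalized counts in recsNAM and 3573, 2228 and 1047 in injIM (log2 difference -0.79, SE 0.44, adjusted p = 0.365), and Xcr1 differed by -0.10 (SE 0.29, adjusted p = 0.913). In injIM against IM, 3 of the 8 were called lower and none higher, where 4.03% of tested genes were called lower. Beside the lower Il1a and Il1b, these were Cd209a by -1.62, Zbtb46 by -0.92 and Ccr7 by -0.86 (limma adjusted p = 0.00864, 0.0424 and 0.0484). Of the 8, Ccr7 and Flt3 were also called higher in sNAM than in IM, where 0.543% of tested genes were called higher. Ccr7 alone was called higher in injsNAM than in injIM, where 0.243% were. Mast cell markers (9 genes) summed to 255 to 273 CPM in injIM and 552 to 715 in IM, beside the lower Il1a and Il1b of injIM. Of 7 tested, 6 were called lower in injIM against IM, where 4.03% of tested genes were called lower. Their sums were 189 to 260 in recsNAM, 15.4 to 201 in injsNAM and 0.161 to 1891 in sNAM. Among them, Hdc had 0, 10931 and 738 normalized counts in sNAM replicates 1, 2 and 3, where Il1b had 150318, 203269 and 106870. Replicate 2 was the shallowest library, at 5.64 M reads. Langerhans cell markers (5 genes) summed to 70.8 to 84.1 in injIM and 119 to 161 in IM. They summed to 78.7 to 90.4 in recsNAM, 68.1 to 238 in injsNAM and 142 to 569 in sNAM. Keratinocytes, which store Il1a, were represented by 9 markers that summed to 15.3 to 90.0 in injIM and 15.4 to 210.3 in IM, with overlapping ranges. Fibroblast markers (8 genes) summed to 499 to 1130 in injIM and 271 to 565 in IM.

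Neutrophils are known for abundant Il1b and Il1r2 transcripts. Of 12 neutrophil markers, Ly6g, Ltf and Elane were at 0 in every library, and 8 stayed under 10 CPM in every library. The full list summed to 109 to 177 CPM in recsNAM, 131 to 338 in injsNAM, 43.1 to 128 in sNAM, 607 to 3645 in injIM and 90.8 to 111 in IM. Mmp9, a matrix protease, had 160, 232 and 1219 normalized counts in recsNAM, 8654, 16010 and 59304 in injIM and 363, 423 and 402 in IM. It was higher in injIM than in IM by 5.36 on the log2 scale (SE 0.53, limma adjusted p = 1.02e-05), beside the lower Il1a and Il1b of injIM, and in recsNAM relative to injIM it fell by 5.39 (SE 0.65, adjusted p = 9.96e-05). Without Mmp9 and Csf3r, which macrophages can express, the neutrophil sum was 3.67 to 11.2 CPM in recsNAM, 0.205 to 34.0 in injsNAM, 0.220 to 10.1 in sNAM, 6.46 to 9.46 in injIM and 0.436 to 3.49 in IM. Monocyte markers (6 genes) summed to 99.95 to 175 in recsNAM, 101 to 141 in injsNAM, 51.2 to 272 in sNAM, 51.2 to 96.1 in injIM and 10.1 to 142 in IM. T and NK cell markers (8 genes) summed to 20.3 to 512 in injsNAM and 16.1 to 425 in sNAM and to at most 10.1 in the other groups. The fits of injIM against IM and recsNAM against injIM called the same 2 genes each when the 6 resident nerve-associated libraries were left out.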

How the data were processed

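The 15 libraries were grouped by their titles into 5 groups of 3. Libraries were made from 250 pg of RNA with 13 PCR cycles, per the labels' protocols, so reads are not independent molecules. The submitters' processing notes name mm10, STAR 2.7.2b, cutadapt, bcl2fastq 2.18, DESeq2 1.24.0 and R 3.6.1. How reads were counted, on which annotation and strand, is not given in the sources used here. Each deposited value is a signal, namely a read count over a factor of its library. Divided by the smallest positive value of the library, 100% of positive values came within 0.01 of a whole number, which gave back whole reads. Replicates differed beyond read-sampling noise (lowest chi-square per degree of freedom 34.88).

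Genes with a mean value of 100 or more over all libraries (8656) were tested with limma 3.58.1 (limma-trend, robust, R 4.3.3) on log2(value + 100) in 1 fit of all groups, with 1 weight per group (recsNAM 1.67, injsNAM 0.311, sNAM 0.175, injIM 3.21, IM 3.43). The ratio of Il1rn to Il1b was tested by exact permutation. The fit was also run on simulated counts with known changes placed in injIM. That run checked that large changes were found, set no limit on false calls and drew the libraries as independent. Alternatives were a pseudocount of 10, no filter, edgeR 4.0.16 (TMM) and DESeq2 1.42.0 on recovered reads, 1 pooled spread, a replicate block, quantile normalization and leaving out each library. Added after seeing the data were edgeR with the deposited factors, a fit without the 6 sNAM and injsNAM libraries, and the Il1b to Il1a ratio. The Il1r2 to Il1r1 ratio was not among the planned results either. The genes and lists were chosen with earlier results of these data known. The text names all 10 genes, the 6 genes most correlated with Il1b and the list genes called in a comparison, at most 8 per comparison by lowest adjusted p. Of marker lists it names only some genes, called or not, so a marker that is not named may also have been called or listed at 0. For Cxcl1 and Cxcl2, values are also given where not called. Levels per length used GENCODE M21 exon unions, and promoter windows came from RefSeq. Same-numbered libraries were not treated as pairs.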

Additional observations from a re-analysis of the deposited data

How the results depend on the processing

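Counts of the 10 genes called moved with the test. For sNAM against IM, where limma called 0, edgeR, edgeR with the deposited factors, 1 pooled spread and quantile normalization called 2 and DESeq2 4, and leaving out 1 library gave 0 to 1. For injIM against IM, edgeR with either scaling called 0 in place of 2. For injsNAM against sNAM, edgeR with either scaling called 1, 1 pooled spread 2 and DESeq2 4, in place of 0. For injsNAM against injIM, edgeR with either scaling, 1 pooled spread and quantile normalization called 1 and DESeq2 2, in place of 0, and leaving out 1 library gave 0 to 1. For recsNAM against injIM, edgeR with either scaling and 1 pooled spread called 1 in place of 2, and leaving out 1 library gave 2 to 3. With a replicate block, 4 were called in recsNAM against injIM (Casp1 at an adjusted p of 0.0495, Il1b, Il1r2 and Nlrp3 at 0.00316) and 1 in injsNAM against injIM (Il1b), and it changed no other count. After the group mean of each gene was subtracted, same-numbered libraries correlated over 0.1 in 9 of 30 pairs, from -0.02 to 0.39 (median 0.06). In injsNAM against sNAM and recsNAM against injsNAM, 6 of 6 libraries correlated best with their own number. It was 5 of 6 in recsNAM against injIM. In sNAM against IM, injIM against IM and injsNAM against injIM it was 4 of 6 each. This is a hint of pairing from the data and not the design, and the main fit leaves it out. Of 306 alternative values of 13 differences, 267 kept their direction and side of the threshold, 32 newly passed and 7 no longer did. The Il1rn to Il1b ratio of recsNAM against injsNAM ran from -0.18 to 0.14 when 1 library was left out.

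Over all genes, 708 were called in injIM against IM by limma, 65 by DESeq2, 18 with 1 pooled spread and 4 by edgeR, and in recsNAM against injIM 652, 127, 22 and 9. In sNAM against IM the numbers were 91, 922, 727 and 332. In injsNAM against sNAM they were 0, 725, 363 and 135, and in injsNAM against injIM 42, 314, 69 and 35. In recsNAM against injsNAM they were 0, 154, 2 and 6, and for the difference between injury responses 0, 228, 4 and 26. Leaving out 1 library gave 399 to 826 calls in injIM against IM, 272 to 899 in recsNAM against injIM and 2 to 75 in injsNAM against injIM. In sNAM against IM it gave 0 without sNAM replicate 1, 9 without sNAM replicate 3 and 56 to 107 otherwise. The replicate block called 1211 in recsNAM against injIM and 70 in injsNAM against injIM. With no filter, 315 were called in injIM against IM, 362 in recsNAM against injIM and 102 in injsNAM against injIM. In sNAM against IM, quantile normalization called 403 and a pseudocount of 10 called 0, and in injsNAM against injIM quantile normalization called 178. The cause was not tested. Quantile normalization moved the median of all genes in sNAM against IM to -0.02 from -0.26. The spread between replicates of sNAM and injsNAM limits what can be seen in every comparison that uses them.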
